A study of Mus musculus with 3 samples.

Results

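Mitochondrial ribosomal proteins are encoded by nuclear genes, made in the cytosol and imported into mitochondria, where they join the mitochondrial rRNAs. The members described here were the genes with a symbol beginning Mrpl (large subunit) or Mrps (small subunit) followed by a number, measured by probe sets that the platform annotation assigned to a single symbol. There were 77 such genes, 48 of the large and 29 of the small subunit, among 19938 named genes. Mrpl53 shared its probe set with Ccdc142 and was left out; that probe set stood at 5.93 log2 on all 3 arrays.

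The cells were ureteric tip cells of Hoxb7-GFP mice (allele Tg(Hoxb7-EGFP)33Cos, strain CD-1, sex unknown) at 10.5 days post coitum, Theiler stage 18. Hoxb7 sequence drives the fluorescent protein in the nephric duct and in the ureteric bud, the outgrowth that branches into the collecting system of the kidney. Each of the 3 samples was the sorted cells of 1 unpooled bud on 1 array, and all 3 formed a single group, so there was no contrast between conditions. The questions open to the design were which members stood above array background, and which differed from bud to bud.

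The mitochondrial ribosome translates the few messages of the mitochondrial genome, which encode core subunits of the respiratory chain and of ATP synthase. The large subunit forms peptide bonds and feeds the new chain through an exit tunnel towards the inner membrane, and the small subunit decodes the message. Compared with its bacterial relatives, the mammalian particle has less RNA and many added proteins that bacteria lack.

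The values were 1 log2 signal per probe set and array, as deposited by the authors, with array medians of 5.47, 5.50 and 5.48 log2. Background was taken as the 95th percentile of 1035 olfactory receptor probe sets, at 5.40, 5.45 and 5.41 log2 on arrays 1, 2 and 3. The table is coarse, with 19073, 19552 and 19024 distinct values among 35557 probe sets on the 3 arrays. In places genes of different sequence share a value: Mrpl17 and Mrpl44 both stood at 6.70 log2 on array 3. A value repeated on several arrays therefore carries no measured spread between buds. The 10 bud markers, among them Ret, Gata3 and Calb1, were all above background, against 1 of 10 markers of mesenchyme and stroma (Cited1), 2 of 8 leukocyte, 4 of 6 erythroid and 6 of 8 endothelial markers. Nothing in the labels says whether the buds came from separate embryos, so p-values measure only the spread between these samples, which number 3 and limit every precision given here.

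The promoter windows of 4 members are shown because these genes mark the ends of the results that follow: the highest signal (Mrps18c), the lowest signal (Mrps27), and the 2 largest differences between buds (Mrps26 and Mrpl44). Each is the 250 bases before the RefSeq start site in GRCm38.p6, plus strand, 5′ to 3′, at chr5:100798509-100798758, chr13:99344536-99344785, chr2:130563507-130563756 and chr1:79775768-79776017 in that order. Capitals mark the letters CCGGAAG, bound by ETS factors such as GABPA, and GCGCANGCG, bound by the factor NRF1, on either strand.
Mrps18c: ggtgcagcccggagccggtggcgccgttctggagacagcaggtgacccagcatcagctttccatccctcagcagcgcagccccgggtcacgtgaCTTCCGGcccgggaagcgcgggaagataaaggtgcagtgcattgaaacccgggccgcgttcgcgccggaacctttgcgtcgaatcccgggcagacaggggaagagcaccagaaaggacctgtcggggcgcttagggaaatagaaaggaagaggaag
Mrps27: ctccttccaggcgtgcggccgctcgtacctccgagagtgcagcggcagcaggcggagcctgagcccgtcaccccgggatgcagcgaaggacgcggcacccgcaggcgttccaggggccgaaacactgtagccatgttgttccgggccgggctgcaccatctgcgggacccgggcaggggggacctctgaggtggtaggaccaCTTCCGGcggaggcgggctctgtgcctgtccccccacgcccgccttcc
Mrps26: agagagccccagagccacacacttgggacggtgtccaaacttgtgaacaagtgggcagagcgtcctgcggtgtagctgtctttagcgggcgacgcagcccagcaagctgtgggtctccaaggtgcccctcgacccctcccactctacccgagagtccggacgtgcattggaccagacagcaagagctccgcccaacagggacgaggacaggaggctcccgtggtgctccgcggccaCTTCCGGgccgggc
Mrpl44: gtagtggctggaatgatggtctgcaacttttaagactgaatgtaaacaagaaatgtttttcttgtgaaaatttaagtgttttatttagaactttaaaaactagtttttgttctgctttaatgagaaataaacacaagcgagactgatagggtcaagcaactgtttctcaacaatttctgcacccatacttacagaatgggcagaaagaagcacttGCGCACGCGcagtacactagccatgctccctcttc
Mrps18c, Mrps27 and Mrps26 each held 1 ETS match in the printed stretch and Mrpl44 held 1 NRF1 match. The Mrps26 window also held 2 overlapping NRF1 matches that reach past the start site and the Mrps27 window 1 YY1 match after it; these are not marked.

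NRF1 and GABPA are transcription factors known for acting on nuclear genes of mitochondrial proteins, and YY1 is another factor linked to them. Over the whole RefSeq window, from 250 bases before to 50 after a start, 68 of the 77 members had sequence. The NRF1 letters GCGCANGCG were in 16 of these (23.5%), the ETS letters CCGGAAG in 25 (36.8%) and the YY1 letters AAGATGGCG in 8 (11.8%), searched on both strands. Of all 27025 genes with a window the shares were 7.03%, 9.93% and 1.64%, and of the 8475 genes above background with a window they were 15.5%, 20.2% and 3.66%. In 41 members (60.3%) at least 1 of the motifs was present, against 34.3% of genes above background. Mrpl17, Mrpl22, Mrpl57, Mrps18b, Mrps21 and Mrps26 held both NRF1 and ETS letters. NRF1 letters were in 12 of 42 large subunit windows (28.6%) and 4 of 26 small subunit windows (15.4%), while ETS letters were in 14 (33.3%) and 11 (42.3%). Of 46 cytosolic ribosomal protein genes, 6 held the NRF1, 17 the ETS and 0 the YY1 letters, and of 66 respiratory chain and ATP synthase genes 19, 17 and 7. These are letter matches, not tested sites. The factors themselves were measured: Gabpa stood at 9.62 log2 and Nrf1 at 6.15 log2, each identical on all 3 arrays, and Yy1 at 8.76 ± 0.15 log2 (SD, n = 3), all above background.

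Nearly all members were above background. The one-sided limma test passed 75 of 77 (97.4%), beside 53% of all named genes (10567 of 19938). The large subunit had 47 of 48 above background (97.9%) and the small subunit 28 of 29 (96.6%). The median member signal was 7.81 log2, and the medians of the subunits were 7.91 log2 for the large and 7.69 log2 for the small, with 5.64 log2 over all genes. Probe sets differ in how strongly they bind, so these medians sort signals and do not compare RNA amounts between genes. Above background were 55 of 58 cytosolic ribosomal protein genes (median 11.85 log2) and 76 of 80 respiratory chain and ATP synthase genes (median 9.53 log2). With the background set by keratin-associated proteins and beta-defensins, a choice made after the data were seen, 60 members passed, beside 21.1% of all genes.

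**Figure D1:**
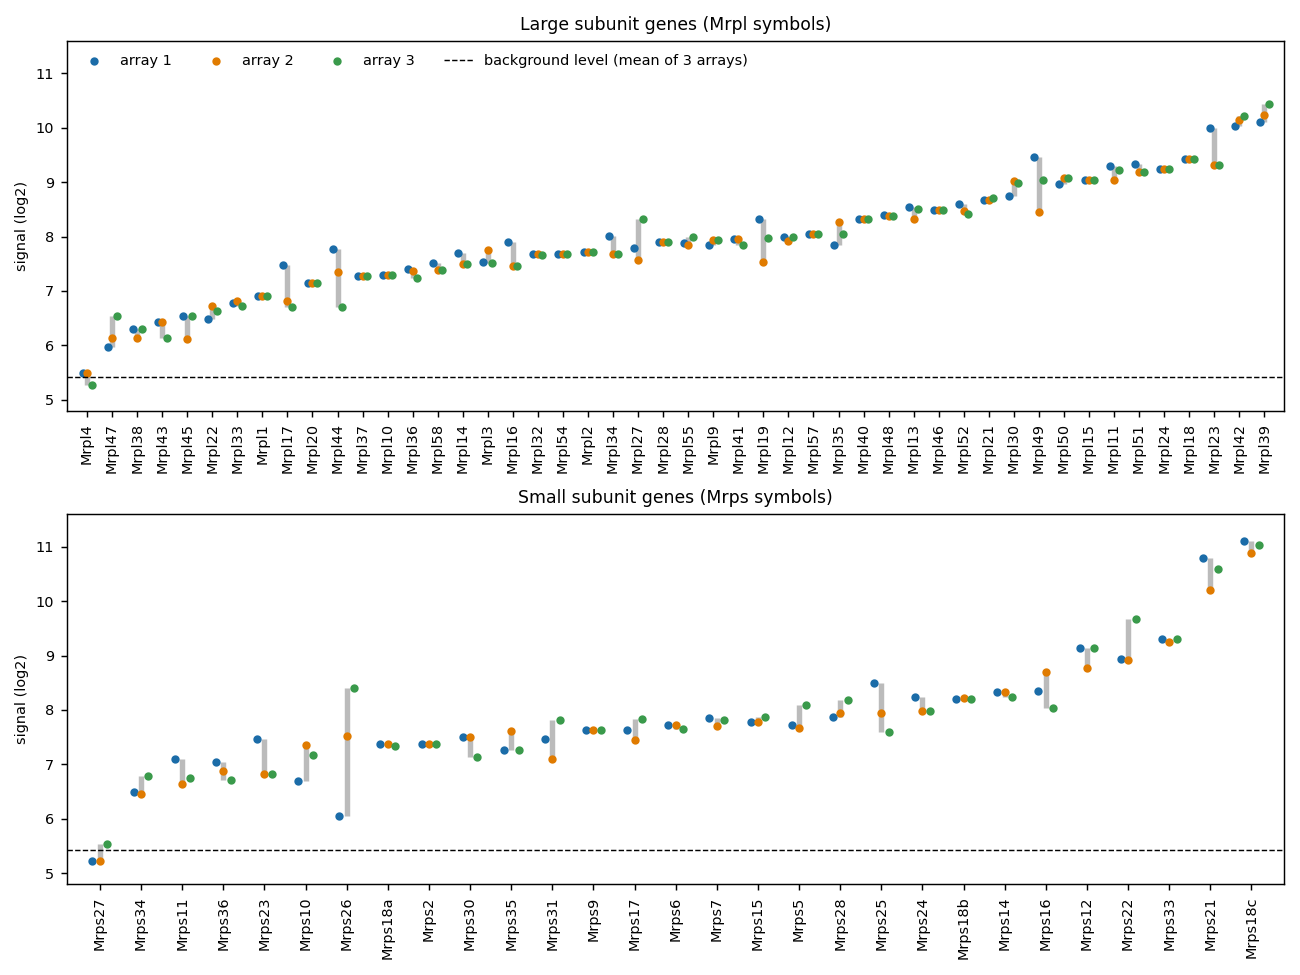
Signal (log2, vertical axis) of each large subunit gene (upper panel, 48 genes) and small subunit gene (lower panel, 29 genes) on arrays 1, 2 and 3 (coloured points), sorted by mean, with grey bars from the lowest to the highest array and a dashed line at the mean background level. Mrpl4 and Mrps27 sit at the line, and Mrps26 has the longest bar.

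The exceptions were 1 gene of each subunit. Mrps27, a pentatricopeptide repeat protein found in mitochondrial but not bacterial ribosomes, stood at 5.22, 5.22 and 5.53 log2 on arrays 1, 2 and 3 (limma, adjusted p = 1). Only its value on array 3 lay above that array's background level. Mrpl4, a large subunit protein with a bacterial counterpart, stood at 5.50, 5.50 and 5.27 log2 (limma, adjusted p = 0.869), and only array 3 lay below the level. Both passed when the 90th percentile, or vomeronasal receptors in place of olfactory ones, set the background. Neither gene can be called absent, since a weak probe set and little RNA give the same signal.

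The other genes of lowest signal were above background. Mrpl47, whose protein sits near the tunnel exit, was at 5.97, 6.14 and 6.54 log2 (limma, adjusted p = 0.00442). It no longer passed against the 99th percentile (limma, adjusted p = 0.255) or without array 2 (limma, adjusted p = 0.0537). Its probe sets disagreed: one was at 5.97 log2 on all 3 arrays, while the other went from 5.97 through 6.31 to 7.11 log2. Mrpl38 was at 6.29, 6.13 and 6.29 log2 and Mrpl43 at 6.43, 6.43 and 6.13 log2, both proteins of the large subunit with no bacterial counterpart. Mrpl45, which anchors the large subunit at the inner membrane, was at 6.55, 6.12 and 6.55 log2. The small subunit gene Mrps34 was at 6.49, 6.46 and 6.79 log2, and Mrpl22, a tunnel protein, at 6.49, 6.72 and 6.63 log2. In each of these 6 genes the range across buds was at most 0.57 log2.

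Mrps18c gave the highest signal of all members, at 11.11, 10.88 and 11.03 log2, and it belongs to a set of 3 paralogs of the bacterial small subunit protein S18. Its relatives occupy other places in the particle, Mrps18b in the small subunit and Mrps18a, despite its symbol, in the large subunit. Mrps18b was at 8.21, 8.21 and 8.19 log2 and Mrps18a at 7.37, 7.37 and 7.34 log2. All 3 paralogs were above background on every array, and the spread of each across buds was at most 0.23 log2. Counting Mrps18a and Mrps30 with the large subunit, as the structure of the mammalian particle places them, and leaving out Mrps36, now known as a subunit of the 2-oxoglutarate dehydrogenase complex, gave 49 of 50 large and 25 of 26 small subunit genes above background.

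The next signals came from both subunits. Mrps21 was at 10.80, 10.20 and 10.59 log2, Mrpl39, a relative of threonyl-tRNA synthetase with no bacterial ribosomal counterpart, at 10.11, 10.24 and 10.43 log2, and Mrpl42 at 10.03, 10.14 and 10.22 log2. Mrpl23, a tunnel exit protein, was at 10.00 log2 on array 1 and 9.32 log2 on both other arrays, and its separate probe sets gave the same order. Mrps33 was at 9.31, 9.25 and 9.31 log2. Mrpl18 (9.42 log2) and Mrpl24 (9.25 log2) were each identical on all 3 arrays. Array 1 was the highest for Mrps18c, Mrps21 and Mrpl23 and the lowest for Mrpl39 and Mrpl42, so the strongest members did not share an order of buds.

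By origin, proteins with a bacterial counterpart and proteins found only in mitochondria were each above background in nearly all members. Of the bacterial-type proteins 29 of 30 in the large subunit and 16 of 16 in the small subunit passed. Of the mitochondria-specific ones it was 19 of 19 and 9 of 10. Beside these stood 97.4% of all members and 53% of all named genes. Among bacterial-type small subunit genes, Mrps2 was at 7.37 log2 on all 3 arrays, Mrps5 at 7.73, 7.67 and 8.10 log2 and Mrps6 at 7.72, 7.72 and 7.64 log2. Of the bacterial-type large subunit genes, Mrpl1 (6.90 log2) and Mrpl2 (7.71 log2) were identical on all 3 arrays and Mrpl3 was at 7.54, 7.76 and 7.51 log2. Mrpl37, a mitochondria-specific protein, was at 7.28, 7.27 and 7.27 log2. Mrpl12, the stalk protein that recruits translation factors, had a mean of 7.97 ± 0.05 log2 (SD, n = 3), and Mrpl58, a peptidyl-tRNA hydrolase built into the large subunit, at 7.52, 7.39 and 7.39 log2; these 2 are named after their values were seen. In none of these genes did the buds differ by more than 0.42 log2.

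In 14 of 77 members (18.2%) the deposited value was the same on all 3 arrays, beside 51.7% of all named genes and 42.1% of those above background. The 12 large subunit genes among them were Mrpl1, Mrpl2, Mrpl10, Mrpl15, Mrpl18, Mrpl20, Mrpl24, Mrpl28, Mrpl40, Mrpl46, Mrpl54 and Mrpl57, from 6.90 log2 (Mrpl1) to 9.42 log2 (Mrpl18). The 2 small subunit genes were Mrps2 at 7.37 log2 and Mrps9 at 7.62 log2. In 27 further members (35.1%) a pair of arrays shared 1 value, beside 28.7% of all named genes and 30.4% of those above background. In 36 (46.8%) all 3 arrays differed, beside 19.6% of all genes and 27.5% of those above background. Cytosolic ribosomal proteins had 3 of 58 identical on all 3 arrays (5.17%) and respiratory chain genes 10 of 80 (12.5%). Of the 8 members with several probe sets, Mrpl41 and Mrpl51 each had one probe set identical on all 3 arrays (7.16 and 9.92 log2) and another that was not (means of 8.68 and 8.55 log2). An identical value is a property of the deposited table and does not show that the buds agreed.

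**Figure D2:**
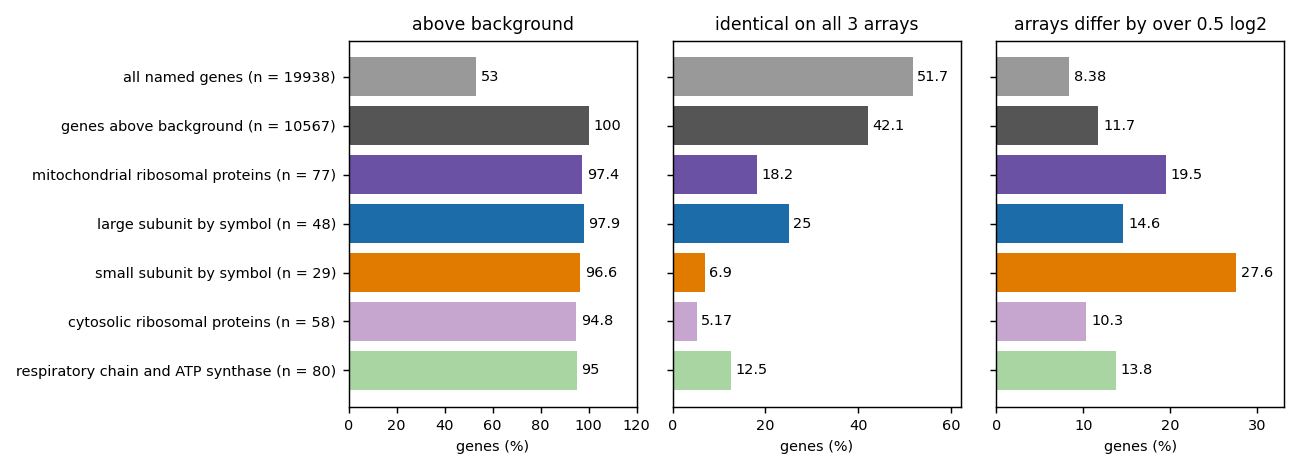
Share of genes (%, horizontal axes starting at 0) above background (left), with 1 value on all 3 arrays (middle) and with arrays differing by over 0.5 log2 (right), for the gene groups on the vertical axis with their numbers of genes. Members stand at 97.4%, 18.2% and 19.5%, beside 53%, 51.7% and 8.38% of all named genes.

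A difference between buds was described by the gap from the lowest to the highest array, with no test, since each bud was 1 array. The gap exceeded 1 log2 in 3 members (3.90%), Mrps26, Mrpl44 and Mrpl49, beside 2.37% of all named genes and 2.75% of genes above background. A share this near the background is not a result about the members. Without array 1 no member passed 1 log2, beside 1.12% of all genes. Without array 2 it was 2 members (2.60%), beside 1.32% of all genes, and without array 3 it was 2 (2.60%), beside 1.21%. Mrpl49 (1.01 log2) lay just inside the limit and Mrps25 (0.89 log2) just outside it. At a limit of 0.5 log2 the count was 15 members (19.5%), beside 8.38% of all named genes and 11.7% of genes above background. Cytosolic ribosomal proteins had 6 of 58 past that limit (10.3%) and respiratory chain genes 11 of 80 (13.8%).

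**Figure D3:**
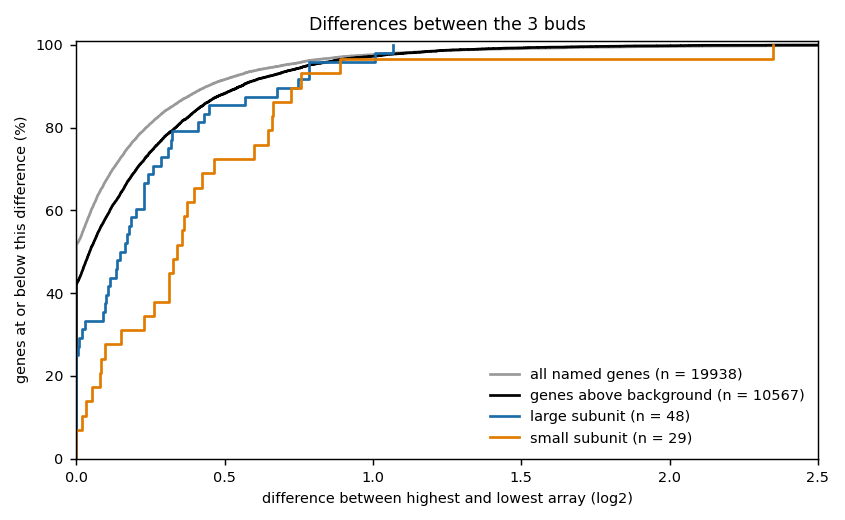
Cumulative share of genes (%, vertical axis) by the difference between the highest and the lowest array (log2, horizontal axis, drawn to 2.5), for all named genes, genes above background, and the large and small subunit. The curves begin at the share of genes with identical values, 51.7% for all genes, 12 of 48 genes for the large and 2 of 29 for the small subunit, and the small subunit curve has the largest median difference, 0.34 log2.

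Mrps26, a small subunit protein found only in mitochondria, stood apart from the other members. Its signal was 6.05 log2 on array 1, 7.52 log2 on array 2 and 8.40 log2 on array 3, a 5.09-fold difference between the lowest and the highest bud. Of all named genes 0.201% had a larger gap. It was above background on every array, with a mean of 7.32 ± 1.19 log2 (SD, n = 3; limma, adjusted p = 0.0212), and without array 2 that call was lost (limma, adjusted p = 0.156). A single probe set measured it, so no second probe set bears on the gap. In sorted bulk cells, fewer cells carrying a message and less of it per cell cannot be told apart. On the same arrays the summed linear signal of the 8 endothelial markers was 1092, 487 and 1640, that of the 6 erythroid markers 949, 277 and 726, and that of the 10 bud markers 7475, 6195 and 5907. Array 3, highest for Mrps26, was the highest in endothelial signal, with 6 of the 8 markers alone highest there, and the lowest in bud signal. Array 1, lowest for Mrps26, was the highest in bud and erythroid signal, and the order of the buds in summed bud signal was the reverse of that in Mrps26. In endothelial signal array 2 was the lowest, with all 8 markers alone lowest there. Kdr and Esam among the endothelial and Hbb-y and Hbb-bh1 among the erythroid markers did not pass the test. Yet Hbb-y (8.86, 5.48 and 8.52 log2, limma adjusted p = 0.053) and Kdr (6.32, 5.55 and 7.04 log2, limma adjusted p = 0.0548) lay above the level on every array. Of the 4 erythroid markers that passed, Epor (5.51 log2), Alas2 (5.64 log2) and Slc4a1 (5.83 log2) were each identical on all 3 arrays. The part of these cells in the Mrps26 signal was not tested.

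Mrpl44, a member of the ribonuclease III family set in the large subunit, ran the opposite way at 7.77, 7.34 and 6.70 log2, a 2.10-fold difference. Mrpl49, another large subunit protein without bacterial counterpart, was at 9.47, 8.46 and 9.04 log2, a 2.01-fold difference with array 2 the lowest. Mrps25 was at 8.49, 7.95 and 7.60 log2 and so shared the order of Mrpl44. Array 1 was thus the highest for both genes and the lowest for Mrps26.

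Array 1 was the highest in several further genes. Mrpl19 was at 8.32, 7.54 and 7.98 log2, and Mrpl17, another tunnel exit protein, at 7.48, 6.81 and 6.70 log2. Mrps23 was at 7.47 log2 on array 1 and 6.82 log2 on both other arrays, the same form as Mrpl23 above.

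Array 3 was the highest in a second set. Mrps22 was at 8.93, 8.91 and 9.67 log2 and Mrps31 at 7.47, 7.10 and 7.82 log2, both mitochondria-specific small subunit proteins. Mrpl27, which lies near the peptide bond-forming centre, was at 7.79, 7.57 and 8.31 log2, and its probe sets agreed that array 3 was the highest and array 2 the lowest. In all 3 genes the buds had the order of the summed endothelial signal given above, array 3 highest and array 2 lowest. Arrays 1 and 2 were nearly level in Mrps22, so its place in that order rests on array 3. Mrps26, also highest on array 3, did not have that order, as array 1 was its lowest. Mrpl49 and Mrpl19 had the order of the summed erythroid signal, array 1 highest and array 2 lowest. The part of endothelial or erythroid cells in these signals was not tested. Array 2 alone was the highest in 12.8% of all named genes and 11.7% of those above background, with shared highest values counted for no array. Of the 12 members of largest gap it was the highest in 2, Mrps16 and Mrps10, both small subunit proteins with bacterial counterparts. Mrps16 was at 8.35, 8.69 and 8.03 log2 and Mrps10 at 6.69, 7.35 and 7.18 log2. From Mrps25 to Mrps10 in this order, the lowest and highest buds differed by 1.85-fold to 1.58-fold, each on single arrays.

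**Figure D4:**
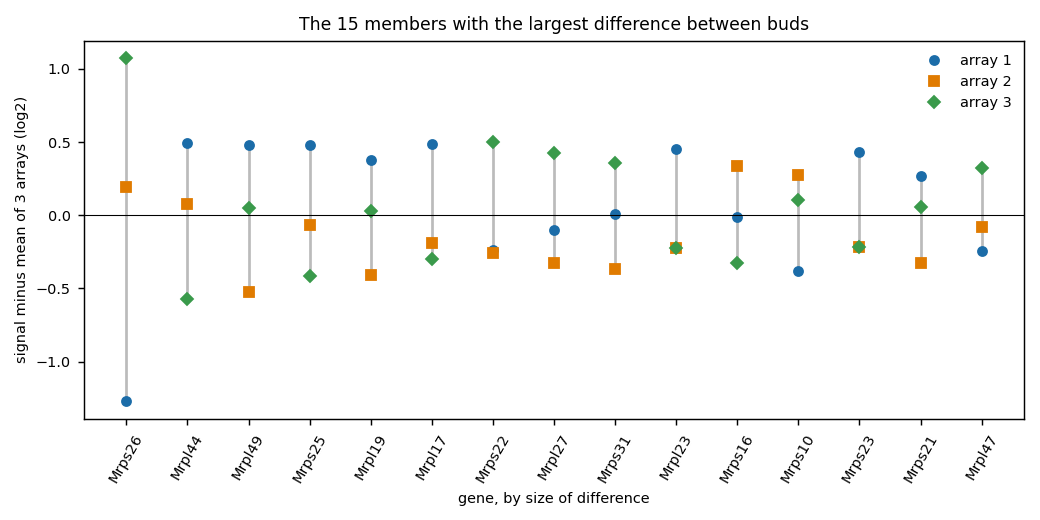
Signal minus the mean of the 3 arrays (log2, vertical axis) for the 15 members whose arrays differed by over 0.5 log2, sorted by that difference, with 1 marker per array and grey lines joining the extremes. Mrps26 spans 2.35 log2, and no single array is the highest throughout.

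Of the small subunit 8 of 29 genes (27.6%) and of the large subunit 7 of 48 (14.6%) passed 0.5 log2, beside 8.38% of all named genes and 11.7% of those above background. The large subunit share lay near the latter. The median gaps were 0.34 log2 in the small and 0.16 log2 in the large subunit. Beside these stood 0 log2 over all named genes and 0.045 log2 over those above background. Leaving out genes with identical values, the medians were 0.36 and 0.23 log2. The same medians were 0.18 log2 over all such genes and 0.21 log2 over those above background, the latter near the large subunit. Within the small subunit, 5 of the 10 mitochondria-specific genes (Mrps22, Mrps23, Mrps25, Mrps26 and Mrps31) and 3 of the 16 bacterial-type genes (Mrps10, Mrps16 and Mrps21) passed. In the large subunit it was 2 of 19 and 5 of 30. With subunits assigned by structure the counts were 8 of 26 and 7 of 50. The difference between subunits was not tested, since genes of 1 sample are not replicates.

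The members as a group were shifted little at the median on any array, identical members included. The median member was 0.005 log2 higher on array 1 than the mean of the other arrays. It was 0.005 log2 lower on array 2 and level on array 3, and the median of all genes was 0 on each array. Array 1 alone was highest in 24 of 77 members (31.2%), beside 12.3% of all genes and 19.8% of those above background. Array 1 alone was lowest in 11 members (14.3%), beside 10.8% and 10.5%. Cytosolic ribosomal proteins had array 1 alone highest in 63.8% and respiratory chain genes in 33.75%. For large subunit genes array 2 was level at the median, and small subunit genes stood at −0.09 log2 there. Array 2 alone was lowest in 11 of 29 small subunit genes (37.9%) and 10 of 48 large subunit genes (20.8%), beside 10.6% of all genes and 15.6% of those above background. Cytosolic ribosomal proteins had array 2 alone lowest in 55.2% and respiratory chain genes in 43.8%. The endothelial markers were alone lowest on array 2 in 8 of 8 genes (median shift −0.88 log2) and the erythroid markers in 3 of 6; their part in the lower small subunit signal was not tested. After quantile normalization array 2 was lowest in 41.4% of small and 20.8% of large subunit genes, beside 11965 of all 19938 named genes. Both subunit shares lay above that of all genes before this normalization and below it afterwards, but the counts are unlike. Before it, genes with identical values (51.7% of all named genes) had no array alone lowest. Afterwards nearly every gene had a lowest array. Whether the excess of array 2 as the lowest array in either subunit depended on the normalization thus cannot be read from these shares. The sign of the median member shift turned under that normalization, to −0.0408 log2 on array 1 and 0.0174 log2 on array 2. The median shift of all genes was then 0.0214 log2 on array 1 and −0.0301 log2 on array 2.

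The rest of the mitochondrial translation machinery was described from lists of its genes. The 4 measured ribosomal proteins whose symbols fall outside the rule were all above background: Dap3 at 6.90, 6.82 and 6.90 log2, Ptcd3 at 7.85, 7.80 and 7.62 log2, Chchd1 at 9.71, 9.83 and 9.71 log2, and Gadd45gip1 at 5.78 log2 on all 3 arrays. None of them differed between buds by more than 0.24 log2.

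Assembly and rRNA modification factors were above background in 18 of 23 measured genes. The GTPases Mtg1 and Mtg2, which act in large subunit assembly, were at 5.85 ± 0.05 and 6.04 ± 0.08 log2 (SD, n = 3), and Gtpbp10, a relative, at 8.79 log2 on all 3 arrays. Eral1, Mrm3, Rpusd4, Mettl15 and Nsun4 did not pass. Nsun4, an rRNA methyltransferase, was at 6.71 log2 on array 1 and at 5.24 and 5.00 log2 on arrays 2 and 3, the last 2 below background (limma, adjusted p = 0.536). Eral1, a chaperone of the small subunit rRNA, stayed near the level at 5.01, 5.22 and 5.44 log2.

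Translation factors were above background in 12 of 13 genes, all but Mtfmt, the enzyme that formylates the initiator tRNA (5.22, 5.77 and 5.23 log2; limma, adjusted p = 0.959). The initiation factors Mtif2 and Mtif3 were at 8.28 ± 0.29 and 6.71 ± 0.41 log2 (SD, n = 3), and the elongation factor Tufm at 7.40 ± 0.32 log2. Mitochondrial aminoacyl-tRNA synthetases were above in 14 of 16, without Aars2 (5.36 ± 0.01 log2) and Pars2 (5.28 log2 on all 3 arrays); Cars2 was at 6.35 ± 0.29 and Ears2 at 6.03 ± 0.10 log2.

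Genes of mitochondrial DNA transcription and RNA stability were above in 12 of 13, all but Mterf2 at 4.58 ± 0.14 log2 (SD, n = 3). The polymerase Polrmt was at 6.85 log2 on all 3 arrays, its partners Tfam and Tfb2m at 7.95 ± 0.08 and 7.07 ± 0.28 log2. Nuclear regulators of mitochondrial biogenesis were above in 9 of 10, without the coactivator Ppargc1b, at 5.09 log2 on all 3 arrays. The regulator Gabpb1, the partner of Gabpa, was at 7.84, 7.20 and 7.84 log2. The shares of these lists stood above the 53% of all named genes at the reported background, but they depended on it. Against the 99th percentile 6 of 16 synthetases passed, beside 35.3% of all genes. Against keratin-associated proteins and beta-defensins, where 21.1% of all genes passed, the counts were 5 of 23 assembly factors, 4 of 13 translation factors, 2 of 16 synthetases, 6 of 13 genes of transcription and RNA stability, 4 of 10 regulators and 2 of the 4 ribosomal proteins outside the rule. No list was tested.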

How the data were processed

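Total RNA of 3 buds went through a single round of amplification and biotin labelling, per the labels' protocols. The deposited values are log2 signals, 1 per probe set and array, produced, per the submitters' processing notes, by Affymetrix Expression Console. The log2 base was inferred from the range of the values. Its version and its correction and normalization steps are not stated in any source used, and values were used as deposited.

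Of 35557 probe sets, 21789 had 1 symbol in the platform annotation, 1621 had several and were left out, and 12147 are unnamed here. Probe sets of a gene were averaged, which concerned 8 members. limma 3.58.1 (R 4.3.3) took each gene's values after subtracting the background level of the array and estimated their mean, with a moderated one-sided test and Benjamini-Hochberg adjustment over 19938 genes. Adjusted values under 0.05 counted as above background. limma's prior, with 1.71 degrees of freedom and 0.05 log2 as its SD, was estimated with identical values (tolerance 1e-06 log2) included, so p-values of identical genes measure no spread between buds. An exact sign-flip test over 3 arrays could not go below 0.125. The test was also run on simulated data, whose outcome is not given here. Every simulated gene had an SD of at least 0.05 log2, so genes with identical values were not covered.

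Differences between arrays were described without a test. Promoter windows were matched by symbol to RefSeq, GRCm38.p6. The motifs were chosen after the signals had been seen. The NRF1 letters are a form shorter by its last base than one searched first; the change was made after the matches of the longer form had been counted, in members and in all genes, and the shares of the longer form, which matches fewer windows in each, are not given here. Alternatives changed the background genes and percentile, the normalization, the choice of probe set, low-value and identical-value filters and the arrays used. Members and lists were chosen with earlier results of these data known. The genes named were the 8 members of highest and of lowest mean, those not above background, the 12 of largest gap, the Mrps18 paralogs and the first 3 measured of each role list. In each pathway list they were those not above background and the first 3 measured; Yy1, named for its motif, and Gadd45gip1, which completes a list of 4, were added after their values were seen.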

Additional observations from a re-analysis of the deposited data

How the results depend on the processing

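The counts of members above background stayed within 1.5 times the reported 75 under every alternative run. They went from 60 with keratin-associated proteins and beta-defensins, chosen after seeing the data, to 77 with vomeronasal receptors or the 90th percentile. Leaving out an array gave 73 to 75. The fits without array 1, without array 3 and with vomeronasal receptors gave little weight to each gene's own spread. Without array 3, Mrps26, at 6.05 and 7.52 log2, had an adjusted p of 4.9e-26 (limma). The counts of these fits thus show little beyond a mean above the level. The large subunit ranged from 35 (of 36, identical genes left out) to 49 (of 50, subunits by structure) and the small subunit from 22 to 29. The count of members past 1 log2 between buds, 3 as reported, was 15 at 0.5 log2. It was 0 to 2 when an array was left out. With the probe set of highest mean it was 4 (5.19%) and after quantile normalization 2 (2.60%). The shares of all genes beside these were 2.37% as reported, 8.38% at 0.5 log2 and 1.12% to 1.32% when an array was left out. They were 2.54% with the probe set of highest mean and 2.29% after quantile normalization. The median shift on array 1 was −0.0408 log2 after quantile normalization and 0.0399 log2 with identical members left out; on array 2 these were 0.0174 and −0.0653 log2, and on array 3 0.0271 and 0.0261 log2. Over all genes the median shifts on arrays 1, 2 and 3 were 0.0214, −0.0301 and 0.00623 log2 after quantile normalization. With identical genes left out they were −0.0123, −0.00329 and −0.00897 log2. The sign of the member shift on arrays 1 and 2 thus depended on the normalization, and the cause was not tested. Mrpl4, which did not pass, lay 0.00184 log2 above the level as reported, −0.64 log2 from it at the 99th percentile, −0.000315 log2 after quantile normalization, and −0.0467 to 0.0719 log2 when an array was left out. Mrps27, below the level as reported, lay 0.28 log2 above it at the 90th percentile and 0.50 log2 above it with vomeronasal receptors. Against keratin-associated proteins and beta-defensins, whose level was 6.82 to 6.91 log2, the means fell below background for Mrpl22 (−0.25 log2), Mrpl33 (−0.10 log2), Mrpl38 (−0.63 log2), Mrpl4 (−1.44 log2), Mrpl43 (−0.53 log2), Mrpl45 (−0.46 log2), Mrpl47 (−0.65 log2), Mrps11 (−0.0347 log2) and Mrps34 (−0.29 log2). No paired analysis was possible because there is 1 group.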
